A study of Homo sapiens with 9 samples.

Results

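RNA of human TC71 cells, an established Ewing sarcoma line, was read for 33 genes of neuronal differentiation and regulated secretion. The genes were taken by symbol from a list of neuronal cytoskeleton, granule, synaptic vesicle, RNA-binding and transcription factor genes, and all 33 were among the 34830 gene rows of the deposited count table. Of the 33, 32 passed the low-count filter and were tested together with all other genes (17042 in all). The one that did not, CHGA, had no counts in any library.

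TC71 cells were injected in Matrigel under the flank skin of NSG mice, an immunodeficient strain, and Ewing sarcoma cells were later recovered by flow cytometry from the flank tumour, the bone marrow and the lung. The labels give 4 bone marrow, 4 lung and 1 primary tumour library, all of the same line, with no drug, transgene or other genotype named, and no age of the mice is stated in the labels. Nothing says which libraries came from the same mouse, and the p-values therefore cover the spread between these libraries alone, which may be partly technical. The host is a mouse and the cells are sorted, bulk populations, in which fewer expressing cells and less RNA per cell cannot be told apart.

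Neurons and neuroendocrine cells share a set of genes for long microtubule-based processes and for the storage and calcium-triggered release of vesicles. The repressor REST holds many of these genes silent in non-neuronal cells. Ewing sarcoma cells carry a fusion of EWSR1 with an ETS factor and have long been known to express some neural markers, which is one reason that these genes are read in this tumour.

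Library totals ran from 11549404 to 17910246 estimated counts. Levels are CPM, the count divided by the library total and scaled up to a common size, with TMM, a correction for composition, and a library at 0 counts could still hold a level of up to 0.183 to 0.254 CPM (3 counts, counting error only). Of 14 Ewing sarcoma markers, 12 passed the filter, and the surface protein STEAP1 lay between 573 and 1052 CPM. FLI1, between 0 and 0.764 CPM, and FATE1, at 0 in every library, did not pass. These levels describe the libraries and do not establish the identity of the line. Of the other cell types, SOX10 of Schwann cells and TH of adrenergic cells were at 0 in all 9 libraries, while HAND2 and GATA2 of the adrenergic list reached 19.2 and 16.5 CPM in lung replicate 4. The summed CPM of 10 adrenergic genes was 3.78 to 27.96 in bone marrow, 10.8 to 51.5 in lung and 31.1 in the primary library, and its part in the results below was not tested. The summed CPM of 8 Schwann cell genes was 7.92 to 10.9 in bone marrow, 6.82 to 12.2 in lung and 7.28 in the primary library. That of 13 leukocyte genes was 3.35 to 14.8, 3.06 to 41.9 and 7.05. For 13 lung epithelium genes it was 16.3 to 302, 19.4 to 123 and 49.2. For 10 red cell genes it was 16.7 to 104, 3.70 to 161 and 8.43. For 10 fibroblast genes it was 102 to 360, 161 to 403 and 295, and for 9 endothelial genes 23.8 to 39.1, 27.6 to 30.7 and 24.0. A few genes made up most of some sums. In bone marrow replicate 3 the lung epithelium sum was mostly KRT18 (130 CPM), KRT8 (89.1 CPM) and EPCAM (77.7 CPM). SCGB1A1 and SFTPD were at 0 in all 9 libraries, and SFTPB reached 2.44 CPM at most. The fibroblast sum was mostly DCN and LUM, and the endothelial sum mostly CDH5, at 22.1 to 29.5 CPM. DESeq2 called KRT8 (lung epithelium) and COL1A2 (fibroblast) higher in bone marrow and CD68 (leukocyte) higher in lung. edgeR called no gene of these lists, and their part in the results below was not tested. Mitochondrially encoded transcripts summed to 3026 to 13422 CPM in bone marrow, 10923 to 14188 in lung and 12717 in the primary library, and their part in the results below was not tested.

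In levels per kilobase of transcript, 4 genes stood above the rest. The median over the 9 libraries was 1184 CPM per kb for STMN1, 254 for TUBA1A, 102 for UCHL1 and 56.9 for STMN4, and the next, SOX11, was at 25.1. At the other end, CHGA, STX1A, CRMP1, NES and NEFM had a median of 0. The list therefore held both abundant transcripts and transcripts found in a few libraries. Of the 32 tested genes, 20 had at least 10 counts in all 9 libraries. The 5 seen at that level in 3 libraries or fewer were NEFM, NES, CRMP1, CHGB and STX1A.

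**Figure D1:**
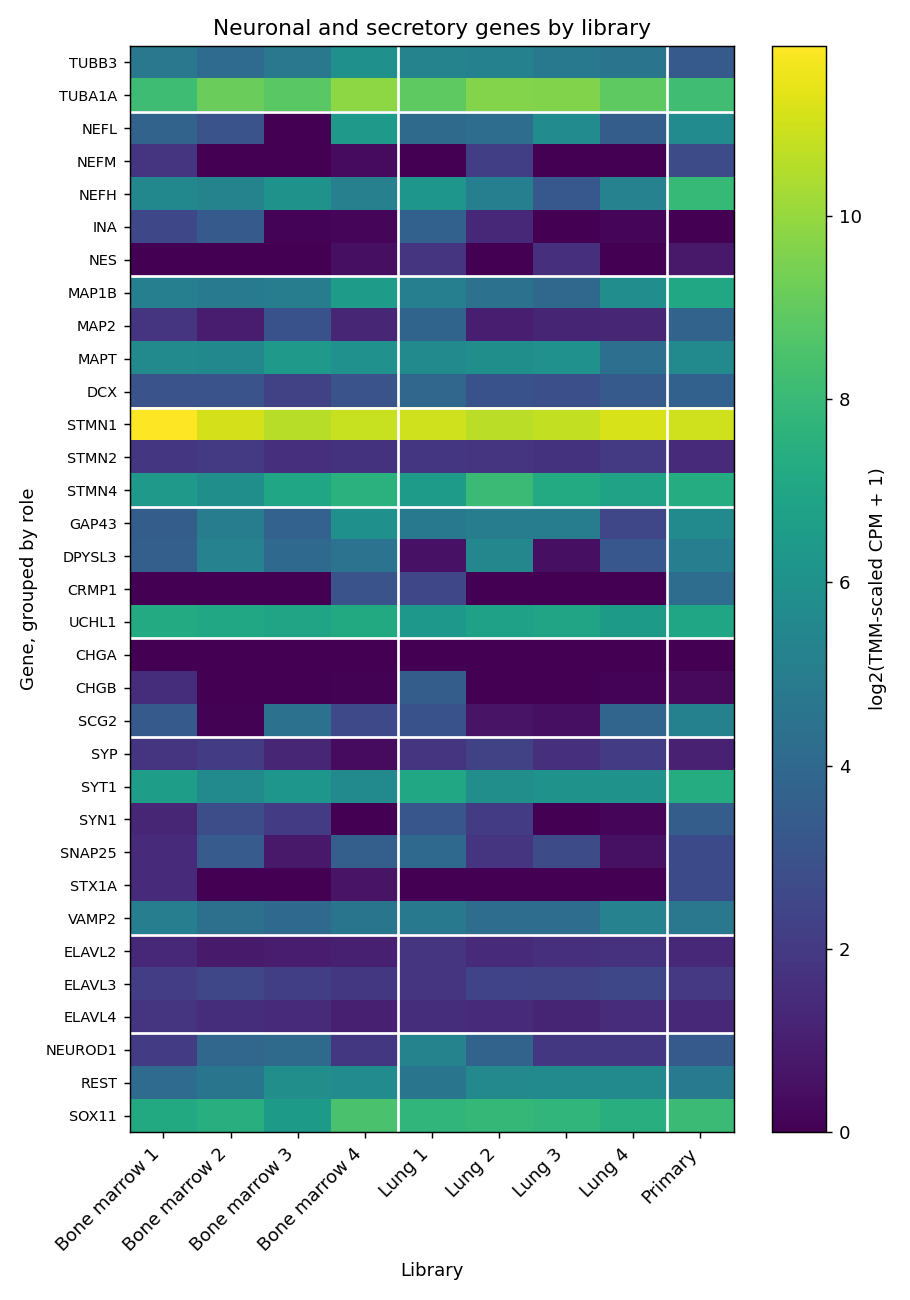
Level of each of the 33 genes (rows, grouped by role) in each of the 9 libraries (columns), as log2(TMM-scaled CPM + 1) by colour. STMN1 and TUBA1A are bright in every library, CHGA is at 0 in every library, and rows such as NEFL, INA, DPYSL3 and CHGB change from library to library within a site.

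Bone marrow and lung were compared first, to ask whether the neuronal programme of metastatic cells differed between the sites. It was not found to: 0 of the 32 tested genes passed an edgeR adjusted p below 0.05, where 0.00587% of all 17042 genes did. At an unadjusted p below 0.05 there was 1 of 32, STX1A, against 10.2% of all genes. DESeq2 called 0, with no adjusted p for 3 of the 32 (it called 3.38% of the genes that had one), and limma voom 0 (0.0352% of all genes). A single gene, ELAVL2 (1 of 32, 3.12%), had no overlap between the bone marrow and the lung libraries, against 5.88% of all genes. Of the 32, 14 had a higher level in bone marrow and 18 in lung, with a median log2 fold change (bone marrow over lung) of -0.093, where the median of all genes was 0. Without lung replicate 1 the split was 20 for bone marrow and 12 for lung, with a median of 0.25. Without bone marrow replicate 3 it was 18 and 14, and leaving out bone marrow replicate 4 moved the median to -0.21.

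The metastases were next set against the single primary tumour library, a comparison with no replicate check on the primary side. No gene passed in edgeR, neither among the 32 nor among all genes (0%). At an unadjusted p below 0.05 there were 3 of 32, NEFH, MAP1B and STX1A, all higher in the primary library, against 4.79% of all genes. DESeq2 called 0, with no adjusted p for 4 of the 32 (it called 0.716% of the genes that had one), and limma voom 0 (0.282% of all genes). The primary library lay above all 8 metastasis libraries for 8 of the 32 (25.0%, against 10.1% of all genes) and below all 8 for 2 (6.25%, against 7.56% of all genes). The 8 were NEFH, NEFM, MAP1B, SCG2, SYT1, SYN1, STX1A and CRMP1, and the 2 were TUBB3 and STMN2. The filter kept genes with counts in as little as 1 library, so NEFM, CRMP1 and STX1A could enter through the primary library itself. Among the 19 with at least 5 CPM in at least 4 libraries, the primary library was highest for 4 (NEFH, MAP1B, SCG2 and SYT1; 9.82% of the 8952 genes past that filter) and lowest for 1, TUBB3 (10% of them). The median log2 fold change (metastases over primary) was -0.19 for the 32 and 0.17 for all genes, and 19 of the 32 were lower in metastases. Without lung replicate 1 the median of the 32 was -0.47, with 23 lower.

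**Figure D2:**
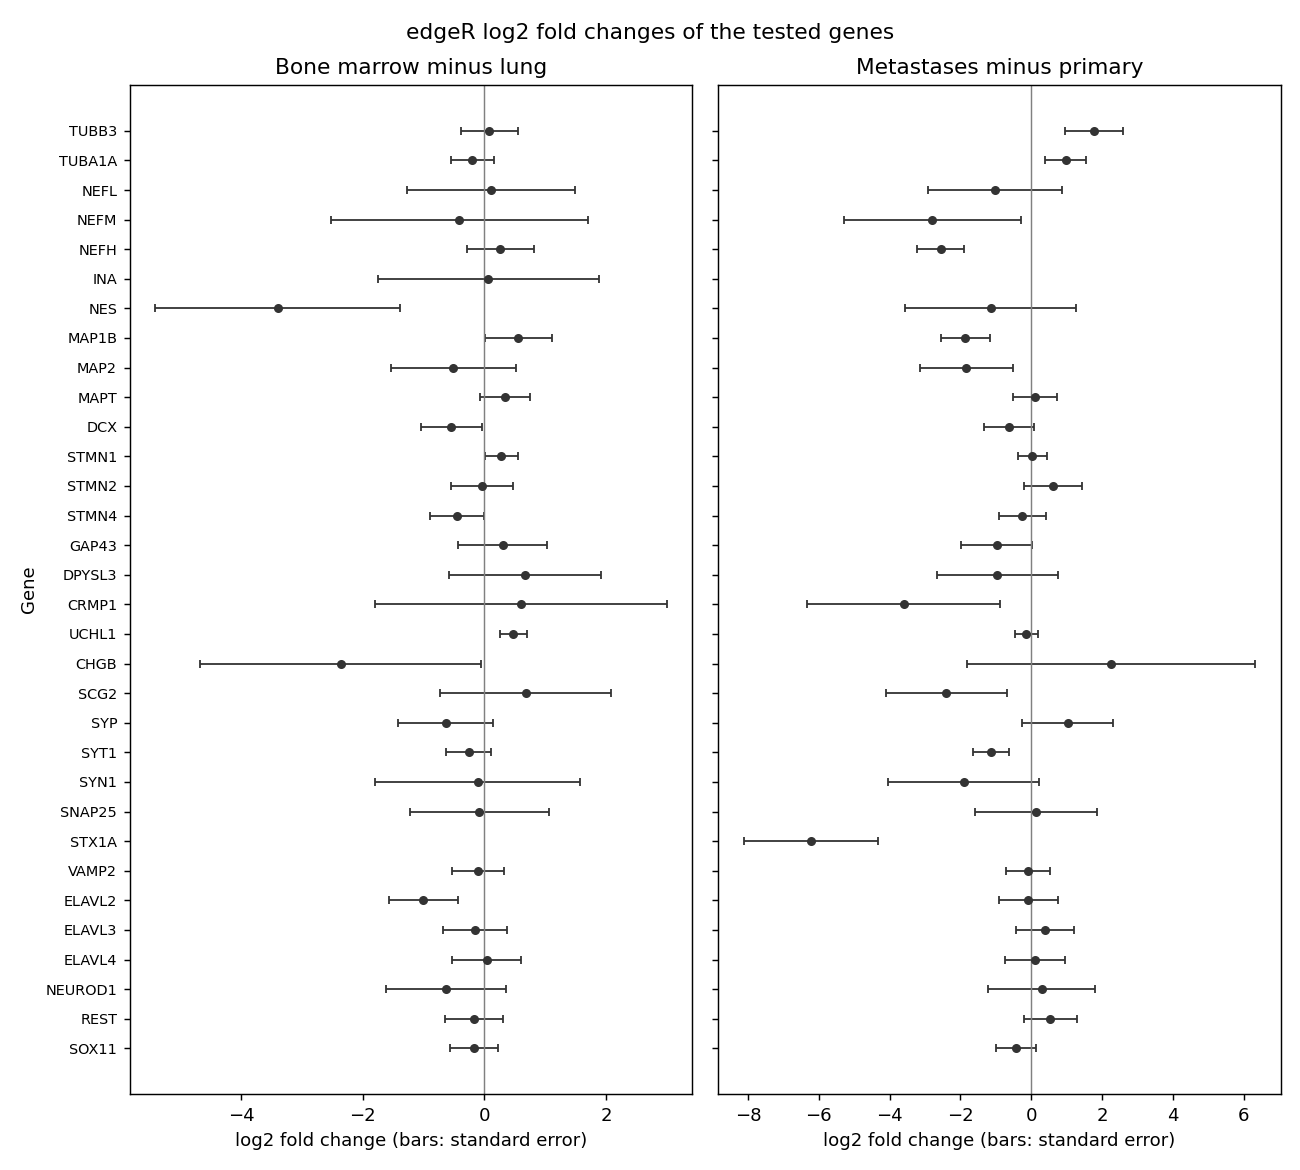
edgeR log2 fold change of each tested gene with its standard error, for bone marrow over lung (left) and for the 8 metastasis libraries over the primary library (right). STX1A at left and INA at right are left out because 1 group is at 0; NEFH, at -2.56 on the right, has a short bar far from 0, while NEFM, CRMP1 and CHGB have bars several units wide.

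Neurofilaments are the intermediate filaments of axons, built from the light, medium and heavy chains NEFL, NEFM and NEFH together with alpha-internexin (INA), and nestin (NES) is the related filament of neural progenitors. The heavy chain NEFH (chromosome 22, 29480230 to 29491390, in hg38 per GENCODE 29) was at 45.4, 38.2, 64.9 and 34.8 CPM in the 4 bone marrow libraries, 73.5, 33.6, 8.61 and 37.5 CPM in the 4 lung libraries and 247 CPM in the primary tumour. Every metastasis library lay far below the primary library, which held 5.87 times their mean, and lung replicate 3 was the lowest. The log2 fold change of metastases over primary was -2.56 ± 0.670 (SE), edgeR adjusted p 0.614 (unadjusted p 0.00409), and it ran from -2.87 to -2.44 when single metastasis libraries were left out. DESeq2 gave an adjusted p of 0.172. Log2 fold changes in parentheses below are of bone marrow over lung where sites are compared and of metastases over primary where the primary library is. Between the sites the NEFH values overlapped (log2 fold change 0.26 ± 0.553 (SE), edgeR adjusted p 0.911). Of the 31-base stretches of its transcripts, 12.1% also occur in other genes, mainly the pseudogene NEFHP1, so a part of its counts could be shared between them.

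The light chain NEFL was at 12.6, 7.20, 0 and 85.3 CPM in the 4 bone marrow libraries, 16.1, 18.0, 52.5 and 10.4 CPM in the 4 lung libraries and 50.9 CPM in the primary tumour. It ranged in bone marrow from no counts in replicate 3 to the highest value of the set in replicate 4, and the primary library lay inside that range. Bone marrow over lung gave a log2 fold change of 0.12 ± 1.38 (SE), edgeR adjusted p 0.988. The medium chain NEFM was at 0 in 5 of the 9 libraries. Its other values were 2.51 CPM in bone marrow replicate 1, 0.261 CPM in bone marrow replicate 4, 3.66 CPM in lung replicate 2 and 5.60 CPM in the primary library. INA was at 4.88, 9.09, 0.0695 and 0.130 CPM in the 4 bone marrow libraries, 12.0, 1.48, 0 and 0.145 CPM in the 4 lung libraries and 0 CPM in the primary tumour. It was thus above 1 CPM in 4 metastasis libraries from both sites and listed at 0 in the primary library, where a count of 0 allows up to 0.230 CPM. The mean of the 8 metastasis libraries was at least 15.1-fold higher than that floor, with an edgeR adjusted p of 1, and 4 of the 8 libraries lay below the floor themselves. NES was below 3 CPM throughout, at 0 in 5 libraries, and at 0.391 CPM in bone marrow replicate 4, 2.46 and 2.07 CPM in lung replicates 1 and 3 and 0.767 CPM in the primary library.

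TUBB3, the beta-tubulin isotype used as a neuronal marker (chromosome 16, 89921392 to 89938761, hg38), was ordered the other way from NEFH. It was at 26.0, 17.0, 26.0 and 61.6 CPM in the 4 bone marrow libraries, 38.4, 35.4, 27.0 and 22.6 CPM in the 4 lung libraries and 9.35 CPM in the primary tumour. The primary library was the lowest of the 9 and the metastases averaged 3.39 times its level, with a log2 fold change of 1.76 ± 0.819 (SE), edgeR adjusted p 1 (unadjusted p 0.0599). Leaving out single metastasis libraries gave 1.51 to 1.87. The sites overlapped (log2 fold change 0.0822 ± 0.467 (SE), edgeR adjusted p 0.970). In the GENCODE 29 annotation 36.3% of the 31-base stretches of TUBB3 transcripts are shared with other genes, mostly AC092143.1, and 5.19% with TUBB2A.

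TUBA1A, the main alpha-tubulin of developing neurons, was at 283, 573, 456 and 907 CPM in the 4 bone marrow libraries, 487, 800.0, 780.2 and 480.5 CPM in the 4 lung libraries and 301 CPM in the primary tumour. The primary library lay at the low end, next to bone marrow replicate 1, and the log2 fold change of metastases over primary was 0.98 ± 0.578 (SE), edgeR adjusted p 1. Its transcripts share 23.8% of their 31-base stretches with TUBA1B and 20.6% with TUBA1C. TUBA1B was at 1340.3 ± 260.2 CPM in bone marrow, 829 ± 287 CPM in the lung and 636 CPM in the primary tumour, where values after ± are the SD of 4 libraries here and below.

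Among 10 other tubulin genes, 7 had a higher fitted level in bone marrow and 3 in lung, and 0 passed in edgeR, DESeq2 or limma voom. The ubiquitous beta-tubulin TUBB was at 712 ± 172 CPM in bone marrow, 421 ± 97.6 CPM in the lung and 545 CPM in the primary tumour (site log2 fold change 0.76, edgeR adjusted p 0.425), and TUBB4B, in the opposite direction, at 95.8 ± 20.9 CPM in bone marrow, 138 ± 36.8 CPM in the lung and 74.7 CPM in the primary tumour (edgeR adjusted p 0.515).

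Microtubule-associated proteins stabilise the tubulin tracks of axons and dendrites. MAP1B, the earliest of them in growing axons (chromosome 5, 72107234 to 72209570, hg38), was at 33.6, 27.4, 30.3 and 92.3 CPM in the 4 bone marrow libraries, 33.7, 20.8, 14.98 and 55.0 CPM in the 4 lung libraries and 138 CPM in the primary tumour. The primary library was the highest, and bone marrow replicate 4 stood apart from the other bone marrow libraries. Metastases over primary gave a log2 fold change of -1.86 ± 0.697 (SE), edgeR adjusted p 0.966 (unadjusted p 0.0254), and leaving out single libraries gave -2.16 to -1.77. The log2 fold change of bone marrow over lung was 0.56 ± 0.548 (SE), edgeR adjusted p 0.754, and it was -0.033 without bone marrow replicate 4.

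MAPT, which encodes the axonal protein tau, was at 49.8, 46.0, 84.4 and 62.0 CPM in the 4 bone marrow libraries, 50.7, 58.6, 62.1 and 19.3 CPM in the 4 lung libraries and 49.8 CPM in the primary tumour. Its level in lung replicate 4 was the lowest, and the primary library sat near the middle (log2 fold change 0.11 ± 0.623 (SE), edgeR adjusted p 1). MAP2, its dendritic counterpart, was at 2.59, 0.915, 6.81 and 1.43 CPM in the 4 bone marrow libraries, 13.0, 0.985, 1.32 and 1.45 CPM in the 4 lung libraries and 12.5 CPM in the primary tumour. Only lung replicate 1 and the primary library exceeded 10 CPM. Doublecortin (DCX), a marker of migrating young neurons, was at 6.36 ± 1.55 CPM in the bone marrow against 9.26 ± 3.56 CPM in the lung libraries (SD, n = 4 each) and at 11.9 CPM in the primary library, with a bone marrow over lung log2 fold change of -0.54 ± 0.501 (SE), edgeR adjusted p 0.737.

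Stathmins bind tubulin dimers and promote microtubule turnover. STMN1, the family member of dividing cells, was at 3696, 2150.4, 1520.0 and 1851 CPM in the 4 bone marrow libraries, 2028, 1562, 1726 and 2281 CPM in the 4 lung libraries and 2056 CPM in the primary tumour. The 8 metastasis libraries spanned 2.43-fold, with bone marrow replicate 1 the highest, and the primary library lay within them. STMN4, a neuronal member, was at 83.9, 58.7, 130.2 and 186 CPM in the 4 bone marrow libraries, 92.4, 272, 152 and 111 CPM in the 4 lung libraries and 159 CPM in the primary tumour. Both lay within the spread of the libraries in each comparison (log2 fold change 0.28 ± 0.274 (SE), edgeR adjusted p 0.754 for STMN1, and -0.45 ± 0.446 (SE), edgeR adjusted p 0.758 for STMN4, bone marrow over lung). STMN2, the neuronal stathmin of growth cones and axon repair, was at 2.66, 3.05, 2.15 and 2.34 CPM in the 4 bone marrow libraries, 2.63, 2.53, 2.32 and 2.98 CPM in the 4 lung libraries and 1.69 CPM in the primary tumour. All 8 metastasis libraries lay between 2.15 and 3.05 CPM, and the primary library was below them (log2 fold change 0.61 ± 0.810 (SE), edgeR adjusted p 1).

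Of the growth cone and axon genes, UCHL1 came closest to a difference between sites. It encodes the neuronal deubiquitinase PGP9.5 (chromosome 4, 41256413 to 41268455, hg38) and was at 149, 133, 119.5 and 146 CPM in the 4 bone marrow libraries, 78.0, 108, 120.1 and 87.3 CPM in the 4 lung libraries and 128 CPM in the primary tumour. The lowest bone marrow library fell just under the highest lung library, so that the sites overlapped by 1 library on each side. The log2 fold change of bone marrow over lung was 0.48 ± 0.224 (SE), edgeR adjusted p 0.487 (unadjusted p 0.0622, DESeq2 adjusted p 0.289), and it ran from 0.40 to 0.59 over single libraries left out.

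GAP43, the growth-associated phosphoprotein of axon tips, was at 10.4, 31.6, 12.2 and 60.4 CPM in the 4 bone marrow libraries, 26.4, 30.9, 30.9 and 4.79 CPM in the 4 lung libraries and 50.4 CPM in the primary tumour. The range within each site was wider than the gap between sites (log2 fold change 0.30 ± 0.729 (SE), edgeR adjusted p 0.925). The collapsin response mediators DPYSL3 and CRMP1 relay guidance cues to the cytoskeleton. DPYSL3 was at 10.9, 37.4, 15.4 and 21.8 CPM in the 4 bone marrow libraries, 0.509, 44.3, 0.414 and 8.27 CPM in the 4 lung libraries and 32.8 CPM in the primary tumour. Lung replicates 1 and 3 were below 1 CPM while lung replicate 2 was the highest of all 9. CRMP1 was at 0 in 6 libraries and at 7.30 CPM in bone marrow replicate 4, 4.83 CPM in lung replicate 1 and 18.1 CPM in the primary library. All 4 genes of the group had a higher fitted level in bone marrow (median log2 fold change 0.54), and none passed the test. Without bone marrow replicate 4, GAP43 was at -0.36 and CRMP1 at -7.05 on the log2 scale, both lower in bone marrow. For CRMP1 the bone marrow libraries left were then all at 0. Lung replicate 1 alone held counts in lung, so the -7.05 does not measure a fold.

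Among 23 other cytoskeletal and transport genes, 20 were tested, 9 had a higher fitted level in bone marrow and 11 in lung, and 0 passed in edgeR. DESeq2 called BASP1, a growth cone protein related to GAP43, higher in lung: it was at 27.2 ± 3.83 CPM in bone marrow, 43.2 ± 3.77 CPM in the lung and 39.8 CPM in the primary tumour (DESeq2 adjusted p 0.0434, edgeR adjusted p 0.486). DPYSL2 had the highest level of that list, at 1256 ± 737 CPM in bone marrow, 731 ± 168 CPM in the lung and 1019 CPM in the primary tumour. The motor gene KIF5A had the smallest p among those higher in bone marrow, at 8.31 ± 3.61 CPM in bone marrow, 2.62 ± 0.977 CPM in the lung and 10.7 CPM in the primary tumour (edgeR adjusted p 0.447).

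Granins are the acidic proteins that pack hormones and peptides into dense-core granules. Chromogranin A (CHGA), the standard neuroendocrine marker, had no counts in any of the 9 libraries. Chromogranin B (CHGB) was at 1.92, 0, 0 and 0.0651 CPM in the 4 bone marrow libraries, 10.3, 0, 0 and 0.0726 CPM in the 4 lung libraries and 0.230 CPM in the primary tumour. Lung replicate 1 held most of it and bone marrow replicate 1 came next, and 4 libraries were at 0. Secretogranin II (SCG2) was at 9.39, 0.0610, 20.1 and 5.08 CPM in the 4 bone marrow libraries, 6.95, 0.563, 0.414 and 13.7 CPM in the 4 lung libraries and 36.3 CPM in the primary tumour. It was above 9 CPM in 2 bone marrow libraries and 1 lung library, below 1 CPM in bone marrow replicate 2 and lung replicates 2 and 3, and highest in the primary library, at 5.15 times the mean of the metastases (log2 fold change -2.40 ± 1.71 (SE), edgeR adjusted p 1).

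Of 20 other granule genes, 14 were tested, 9 had a higher fitted level in bone marrow and 5 in lung, and 0 passed in edgeR, DESeq2 or limma voom. The neuropeptide gene GRP, which encodes gastrin-releasing peptide, had the highest level, at 414 ± 203 CPM in bone marrow, 335 ± 75.6 CPM in the lung and 312 CPM in the primary tumour. The prohormone convertase PCSK2 was at 96.9 ± 14.0 CPM in bone marrow, 49.3 ± 28.3 CPM in the lung and 66.2 CPM in the primary tumour (edgeR adjusted p 0.486). VGF, a granin-like precursor, was at 0.0163 ± 0.0326 CPM in bone marrow, 0.410 ± 0.362 CPM in the lung and 1.46 CPM in the primary tumour (edgeR adjusted p 0.436). GRP and CALCB also mark pulmonary neuroendocrine cells, and the summed CPM of 9 such markers was 449.6 to 1223 in bone marrow, 365 to 1056 in lung and 535 in the primary library, while INSM1 and CALCA of the same list stayed below 1 CPM.

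Synaptic vesicles fuse through the SNARE proteins VAMP2 on the vesicle and STX1A and SNAP25 on the plasma membrane, with synaptotagmin SYT1 as the calcium sensor. SYT1 (chromosome 12, 78863993 to 79452008, hg38) was at 98.3, 47.8, 72.8 and 48.2 CPM in the 4 bone marrow libraries, 131, 57.3, 66.4 and 65.2 CPM in the 4 lung libraries and 160.3 CPM in the primary tumour. The primary library was the highest, with lung replicate 1 next and apart from the other 3 lung libraries. The log2 fold change of metastases over primary was -1.13 ± 0.503 (SE), edgeR adjusted p 1 (unadjusted p 0.0507), ran from -1.36 to -1.07 over single libraries left out, and the sites overlapped (log2 fold change -0.26 ± 0.371 (SE), edgeR adjusted p 0.854).

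The vesicle SNARE VAMP2 was at 33.1, 20.0, 15.7 and 23.6 CPM in the 4 bone marrow libraries, 26.4, 17.9, 18.1 and 37.1 CPM in the 4 lung libraries and 25.5 CPM in the primary tumour. The groups overlapped throughout. The plasma membrane SNARE SNAP25 was at 1.63, 9.70, 0.764 and 10.9 CPM in the 4 bone marrow libraries, 15.8, 2.39, 5.71 and 0.435 CPM in the 4 lung libraries and 5.37 CPM in the primary tumour. It varied 36.2-fold over the metastasis libraries, with high and low values in both sites. Its partner STX1A had no counts in any lung library, nor in bone marrow replicates 2 and 3. It was at 1.70 CPM in bone marrow replicate 1, 0.521 CPM in bone marrow replicate 4 and 5.29 CPM in the primary library. The bone marrow mean was at least 9.61-fold higher than a floor of 3 counts over the lung group, with an edgeR adjusted p of 0.486, and it rested on 2 of 4 libraries. Synaptophysin (SYP), a vesicle membrane protein, lay between 0.261 and 4.08 CPM, overlapped between the sites and was at 1.15 CPM in the primary library, below all 4 lung libraries and inside the bone marrow range.

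**Figure D3:**
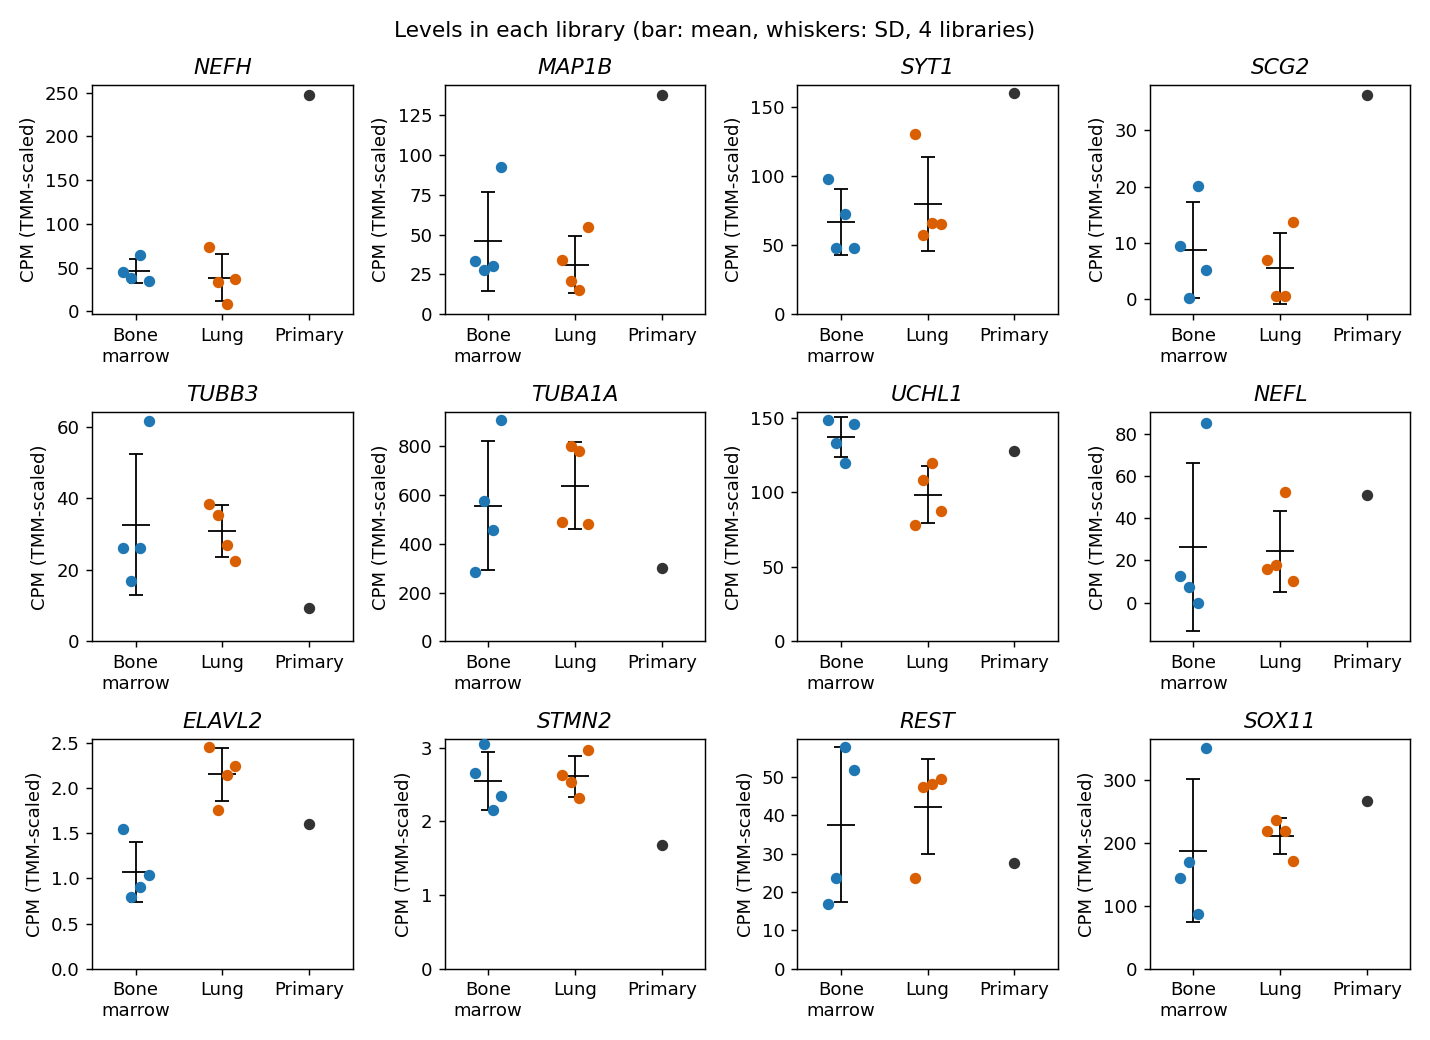
TMM-scaled CPM of 12 genes in each library, with the mean and SD of the 4 bone marrow and the 4 lung libraries; the primary tumour is 1 point. NEFH, MAP1B, SYT1 and SCG2 have their highest value and TUBB3 and STMN2 their lowest in the primary library, and ELAVL2 is the one gene whose 4 lung values all lie above its 4 bone marrow values.

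Among 24 other vesicle fusion genes, 21 were tested, 13 had a higher fitted level in bone marrow and 8 in lung, and 0 passed between sites with any of the 3 tools. SNAP23, the ubiquitous relative of SNAP25, had the highest level, at 149 ± 44.2 CPM in bone marrow, 145 ± 19.9 CPM in the lung and 107 CPM in the primary tumour. NAPA, an adaptor that helps recycle SNAREs, was at 7.79 ± 3.21 CPM in bone marrow, 0.511 ± 0.967 CPM in the lung and 1.46 CPM in the primary tumour (edgeR adjusted p 0.475), and BSN, a scaffold of the presynaptic zone, at 0.200 ± 0.312 CPM in bone marrow, 1.68 ± 2.29 CPM in the lung and 0.230 CPM in the primary tumour.

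SYN1 encodes synapsin I, which tethers vesicles, and its promoter is a textbook target of REST. RefSeq promoter windows (GRCh38.p14, 250 bases before to 50 after a start) matched 22 of the 33 genes, in 47 windows, and were searched on both strands for the 2 motifs of the REST element, CAGCACC and GGACAG. The first motif was found in 7.75% and the second in 20.5% of all 35116 windows, and both in order within 9 bases of each other in 47 of them (0.134%). Of the 22 genes, SYN1 alone held the pair, NES and CRMP1 held the first motif without it, and 10 held the second (13 of the 47 windows). The SYN1 and NES windows are shown because they differ in this element, which is in capitals where a motif or the pair was found. SYN1 lies at chrX:47619808-47620107 and NES at chr1:156677358-156677657, both on the minus strand.

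SYN1: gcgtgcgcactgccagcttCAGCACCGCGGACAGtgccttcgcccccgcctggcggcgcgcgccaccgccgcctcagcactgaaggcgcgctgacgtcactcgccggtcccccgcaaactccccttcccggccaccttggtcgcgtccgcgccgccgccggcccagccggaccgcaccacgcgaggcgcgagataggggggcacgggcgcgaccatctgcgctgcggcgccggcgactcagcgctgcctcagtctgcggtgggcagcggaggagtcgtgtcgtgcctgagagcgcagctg

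NES: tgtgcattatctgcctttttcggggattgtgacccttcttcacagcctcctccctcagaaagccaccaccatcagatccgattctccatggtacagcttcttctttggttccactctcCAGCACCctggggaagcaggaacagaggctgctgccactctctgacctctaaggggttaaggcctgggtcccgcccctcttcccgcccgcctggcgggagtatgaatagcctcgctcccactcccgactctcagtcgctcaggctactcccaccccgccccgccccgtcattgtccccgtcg

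In the SYN1 window the element begins 231 bases before the start, and in NES the lone motif begins 132 bases before it. A match of letters describes the window and does not show binding. SYN1 itself was at 1.41, 6.04, 3.20 and 0 CPM in the 4 bone marrow libraries, 8.05, 3.31, 0 and 0.145 CPM in the 4 lung libraries and 10.3 CPM in the primary tumour. It was absent or nearly so in bone marrow replicate 4 and lung replicates 3 and 4, and highest in the primary library (log2 fold change -1.90 ± 2.13 (SE), edgeR adjusted p 1). GGAA repeated 3 times, the kind of repeat that the Ewing sarcoma fusion binds, was in 0 of the 47 windows and in 0.0854% of all windows.

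REST itself (chromosome 4, 56907876 to 56966678, hg38) was at 16.9, 23.7, 57.7 and 51.9 CPM in the 4 bone marrow libraries, 23.7, 47.5, 48.2 and 49.6 CPM in the 4 lung libraries and 27.5 CPM in the primary tumour. In lung 3 libraries were tightly grouped and replicate 1 was at about the level of the primary library, and bone marrow split into 2 lower and 2 higher libraries. Bone marrow over lung gave a log2 fold change of -0.17 ± 0.476 (SE), edgeR adjusted p 0.938, and that of metastases over primary was 0.53 ± 0.750 (SE), edgeR adjusted p 1. Lung replicate 1, the lung library with least REST, was the highest of the 8 metastasis libraries for 11 of the 32 tested genes: NEFH, INA, NES, MAP2, DCX, CHGB, SYT1, SYN1, SNAP25, ELAVL2 and NEUROD1. Bone marrow replicates 1 and 2 held no more REST than lung replicate 1 and were highest for 4 and 1. Bone marrow replicate 4, with one of the higher REST levels, was highest for 7, among them TUBB3, TUBA1A, NEFL, MAP1B, GAP43 and SOX11. How often each library was the highest over all tested genes was not counted. A part of REST in these values was not tested.

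REST acts through corepressors that remove acetyl and methyl groups from histones. Of 16 corepressor genes, 12 had a higher fitted level in bone marrow and 4 in lung, and 0 passed in edgeR, DESeq2 or limma voom. HDAC2, a histone deacetylase, had the highest level, at 301 ± 50.4 CPM in bone marrow, 267 ± 37.5 CPM in the lung and 365 CPM in the primary tumour. The scaffold SIN3A was at 51.7 ± 7.67 CPM in bone marrow, 16.2 ± 13.5 CPM in the lung and 31.7 CPM in the primary tumour (site log2 fold change 1.67, edgeR adjusted p 0.436, DESeq2 adjusted p 0.0726), and the phosphatase CTDSP1 at 3.27 ± 3.26 CPM in bone marrow, 8.46 ± 6.42 CPM in the lung and 8.13 CPM in the primary tumour (edgeR adjusted p 0.591).

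NEUROD1, a basic helix-loop-helix factor that drives neuronal differentiation, was at 3.11, 13.8, 16.3 and 2.80 CPM in the 4 bone marrow libraries, 37.8, 12.5, 2.81 and 2.83 CPM in the 4 lung libraries and 9.12 CPM in the primary tumour. Lung replicate 1 was the highest, and both sites held libraries near 3 CPM (log2 fold change -0.64 ± 0.987 (SE), edgeR adjusted p 0.867). SOX11, a factor of young neurons, was at 144, 169, 87.4 and 351 CPM in the 4 bone marrow libraries, 219.7, 236, 219 and 171 CPM in the 4 lung libraries and 268 CPM in the primary tumour. All lung libraries lay between the extremes of bone marrow, which were replicates 3 and 4 (log2 fold change -0.17 ± 0.389 (SE), edgeR adjusted p 0.921). Of 24 other neuronal transcription factors, 18 were tested, 10 had a higher fitted level in bone marrow and 8 in lung, and 0 passed with any of the 3 tools. SOX4, close kin of SOX11, had the highest level, at 469.6 ± 252 CPM in bone marrow, 722 ± 61.9 CPM in the lung and 845 CPM in the primary tumour. EBF1 was at 32.2 ± 19.7 CPM in bone marrow, 13.7 ± 5.43 CPM in the lung and 52.5 CPM in the primary tumour, and ID2, an inhibitor of helix-loop-helix factors, at 168 ± 23.8 CPM in bone marrow, 249.6 ± 27.4 CPM in the lung and 163 CPM in the primary tumour (edgeR adjusted p 0.486 and 0.436 for the site difference).

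The neuronal ELAVL proteins bind AU-rich RNA and stabilise neuronal messages. ELAVL2 was at 1.55, 0.793, 0.903 and 1.04 CPM in the 4 bone marrow libraries, 2.46, 1.76, 2.15 and 2.25 CPM in the 4 lung libraries and 1.61 CPM in the primary tumour. Its lung values all lay above its bone marrow values, though by little, and the primary library lay in the gap between them. The log2 fold change of bone marrow over lung was -1.0009 ± 0.564 (SE), edgeR adjusted p 0.530 (unadjusted p 0.110, DESeq2 adjusted p 0.416), from counts of 12.8 to 31.2 per metastasis library. ELAVL3 was at 3.59 ± 0.815 CPM in the bone marrow against 4.00 ± 1.06 CPM in the lung libraries and ELAVL4 at 1.76 ± 0.579 CPM in the bone marrow against 1.71 ± 0.271 CPM in the lung libraries (SD, n = 4 each), with 2.91 and 1.61 CPM in the primary library, and both overlapped between groups.

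Of 16 other neuronal RNA-binding and splicing genes, 14 were tested, 5 had a higher fitted level in bone marrow and 9 in lung, and 0 passed in edgeR. DESeq2 called MSI2, a translation regulator of stem and progenitor cells, higher in bone marrow: it was at 93.1 ± 5.94 CPM in bone marrow, 41.8 ± 16.5 CPM in the lung and 57.3 CPM in the primary tumour (DESeq2 adjusted p 0.0323, edgeR adjusted p 0.381). The splicing repressor PTBP2 had the highest level, at 264 ± 77.6 CPM in bone marrow, 256 ± 100.0 CPM in the lung and 242 CPM in the primary tumour, and RBFOX3, the NeuN antigen, was at 0.494 ± 0.203 CPM in bone marrow, 1.37 ± 1.47 CPM in the lung and 0.230 CPM in the primary tumour. Against the primary library DESeq2 called NOVA1, a neuronal splicing factor, lower in metastases: it was at 9.15 ± 2.09 CPM in bone marrow, 9.22 ± 0.424 CPM in the lung and 27.1 CPM in the primary tumour (DESeq2 adjusted p 0.0447, edgeR adjusted p 0.925).

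Genes of the list differed widely in how steady they were. The coefficient of variation of CPM (SD over mean) across the 8 metastasis libraries had a median of 0.498 over the 32 genes and 0.692 over all tested genes. UCHL1, at 0.218, was the steadiest of the genes above 100 CPM on average. CHGB, STX1A, CRMP1, NEFM, NES, INA, MAP2, NEFL, SYN1, NEUROD1 and SCG2 were above 1. STMN2, at 0.122, was the steadiest of all 32, although its mean of 36.2 counts per library alone would give a counting error of 0.166. ELAVL4 (0.241, counting error 0.203) and ELAVL3 (0.238, counting error 0.137) also lay near the counting error. SYN1, with a mean count of 38.5 close to that of STMN2, had a coefficient of 1.09.

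**Figure D4:**
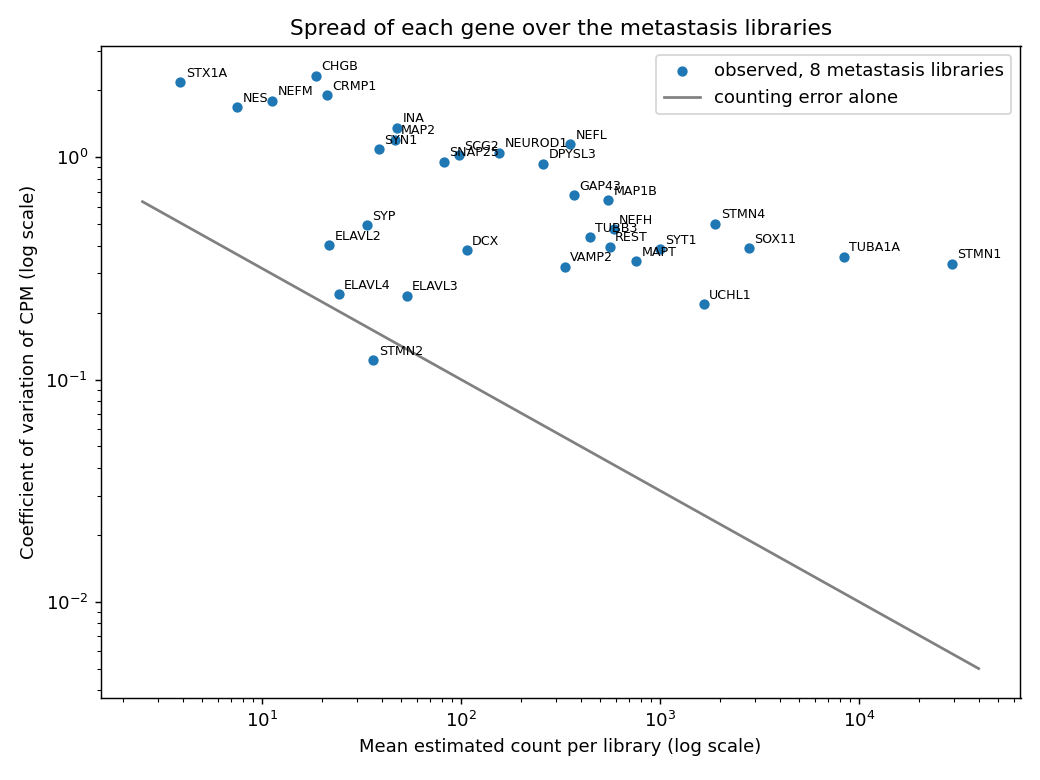
Coefficient of variation of CPM over the 8 metastasis libraries against the mean estimated count of each tested gene, both on log axes, with the line that counting error alone would give. STMN2 lies under the line and ELAVL3 and ELAVL4 just above it, while SYN1, MAP2 and INA, of similar mean count, lie about 1 or higher.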

How the data were processed

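RNA was measured in 9 libraries of sorted TC71 cells, made per the labels' protocols with RNeasy extraction and a low-input template-switching kit. Expression was deposited as estimated counts, 1 value for each symbol and library, which the authors made from their reads. The submitters' processing notes name Trim Galore, Salmon and hg38, and strand setting and versions are not given in the sources used here. A deposited sample table gives the percent of reads assigned to each species and a fraction for each counting category. Human reads were 72.7 to 79.1 percent and mouse reads 7 to 8.09 percent. These values were used to describe the libraries only, and a part of mouse reads in the levels was not tested.

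Estimated counts were rounded to whole numbers, spike-in rows (at most 0.0036% of a library) and vector rows (at most 0.0133%) were left out, and genes were filtered with filterByExpr, whose smallest group is the 1 primary library. The 3 groups were fitted together with edgeR 4.0.16 (TMM, quasi-likelihood test, Benjamini-Hochberg adjustment over all tested genes, threshold 0.05) under R 4.3.3. DESeq2 1.42.0, limma 3.58.1 voom with quality weights, other scalings and filters, a replicate block and libraries left out were alternatives. The libraries differed beyond sampling noise in every pair. Levels per kb divide CPM by the longest principal GENCODE 29 transcript. The 33 genes, the other lists and the tests were chosen with earlier results of these data known. All 33 genes are named; from each other list the genes that passed in any tool, the most abundant gene and the gene of smallest p in each direction are named, except that some results are not reported here. In simulated counts, 100 genes were changed at each fold. Between bone marrow and lung (16126 genes), edgeR called 37% of genes changed 4-fold and 87% of genes changed 16-fold. At each fold it also called 6 unchanged genes. Between metastases and primary (16251 genes) it called 4% and 42%, and 0 unchanged genes. Floors cover counting error only, while the SE and SD include the spread between these libraries.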

Additional observations from a re-analysis of the deposited data

Results flagged for a closer look

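In 14 of 63 groups of 4 libraries (22.2%), 1 library of a site stood far from the other 3 by Dixon's test. Over all tested genes 17.8% of 33409 such groups did. Chance flags about 1 in 20 only for normally distributed values, and a group with 1 library above 0 and the others at 0 is always flagged. The rate of 1 in 20 therefore does not apply to these CPM values, and genes of the same library are not independent. Lung replicate 1 stood above the other lung libraries for INA (12.0 CPM), MAP2 (13.0 CPM), CRMP1 (4.83 CPM), CHGB (10.3 CPM) and SYT1 (131 CPM), and below them for REST (23.7 CPM). Bone marrow replicate 4 stood above the other bone marrow libraries for NEFL (85.3 CPM), MAP1B (92.3 CPM), CRMP1 (7.30 CPM) and NES (0.391 CPM, where the others were at 0). Bone marrow replicate 1 stood above for NEFM (2.51 CPM) and CHGB (1.92 CPM), bone marrow replicate 3 below for DCX (4.03 CPM), and lung replicate 2 above for NEFM (3.66 CPM, where the others were at 0).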

How the results depend on the processing

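None of the 32 genes was called in either comparison under any alternative, and 0 calls of theirs changed. Between sites, all genes called numbered 1 in edgeR and 3 with at least 5 CPM in at least 4 libraries, 468 with DESeq2, 6 with limma voom, 0 with the replicate block, 0 with each single library left out, and 0 without both bone marrow replicate 1 and lung replicate 3. Against the primary library they numbered 0 in edgeR, 97 with DESeq2 and 48 with limma voom. Same-numbered bone marrow and lung libraries had correlations of their deviations of 4.8e-05, 0.0235, -0.0291 and -0.0351, and not every library correlated best with its own number. Differently numbered pairs ran from -0.0485 to 0.0444. With all values this near to none, whether a number marks one mouse cannot be told. Under no alternative was a direction called, and 10 of 32 genes kept their sign in every site comparison and 26 of 32 against the primary library; the cause of the sign changes was not tested. With library size alone, the site log2 fold change turned to -0.0786 for INA and -0.0597 for ELAVL4. With library size alone, that of metastases over primary turned to -0.0652 for STMN1. With limma voom, the site log2 fold change turned to -2.08 for NEFL, -0.46 for INA, 0.32 for SNAP25 and -0.17 for ELAVL4. With limma voom, that of metastases over primary turned to -0.0810 for STMN1, -0.89 for CHGB, -0.62 for SNAP25 and -0.25 for NEUROD1. With the replicate block, the site log2 fold change turned to -0.0774 for TUBB3, -0.998 for NEFL, 2.22 for NEFM, -0.00383 for GAP43, -0.0106 for SCG2, 0.0463 for SYN1 and -0.00481 for ELAVL4. Without both of those libraries, the site log2 fold change turned to 0.13 for TUBA1A, -0.0726 for NEFH, -0.54 for INA, -0.10 for STMN1, 0.20 for SNAP25, -0.27 for ELAVL4 and 0.13 for REST. Without both of those libraries, that of metastases over primary turned to -0.12 for STMN1. Leaving out single libraries, the site log2 fold change ran from -0.42 to 0.30 for TUBB3, -0.54 to 0.0404 for TUBA1A, -1.88 to 0.84 for NEFL, -3.26 to 6.27 for NEFM, -0.0644 to 0.80 for NEFH, -0.999 to 2.69 for INA, -0.0332 to 0.99 for MAP1B and -1.34 to 1.24 for MAP2. It ran from -0.0303 to 0.43 for STMN1, -0.13 to 0.0397 for STMN2, -0.36 to 0.60 for GAP43, -7.05 to 7.70 for CRMP1, -6.39 to 3.92 for CHGB, -0.16 to 1.71 for SCG2, -0.49 to 0.10 for SYT1 and -0.90 to 1.21 for SYN1. It ran from -0.59 to 1.05 for SNAP25, -0.32 to 0.15 for VAMP2, -0.15 to 0.22 for ELAVL4, -1.09 to 0.58 for NEUROD1, -0.45 to 0.0921 for REST and -0.66 to 0.0695 for SOX11. Against the primary library it ran from -0.0109 to 0.24 for MAPT, -0.19 to 0.10 for STMN1, -0.92 to 2.46 for CHGB, -0.47 to 0.33 for SNAP25, -0.0401 to 0.20 for ELAVL4 and -0.35 to 0.47 for NEUROD1. In the site ranges, the -7.05 and 7.70 of CRMP1 and the 6.27 of NEFM are from fits with every library of a site at 0. Their sizes therefore do not measure a fold. STX1A, NES, NEFM, CRMP1 and CHGB reached 10 counts in 3 libraries or fewer, and a part of depth in this was not tested.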

Other observations

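Some of the genes had whole-number estimated counts (within 0.01) and others did not. Of the libraries with any count, the value was whole in 7 of 7 for INA, 7 of 7 for SYN1, 9 of 9 for SCG2, 8 of 9 for DPYSL3 and 7 of 8 for NEFL. It was whole in 1 of 9 for STMN2 and in 0 of 9 for each of ELAVL2, ELAVL3 and ELAVL4, the genes whose spread across libraries lay nearest to counting error. SYN1, INA and MAP2 had 38.5, 47.8 and 46.7 counts on average and coefficients of variation of 1.09, 1.36 and 1.20, against 36.2 counts and 0.122 for STMN2. A wide spread did not always go with whole values: MAP2 and NEUROD1 (coefficient 1.05) were whole in 1 of 9 libraries, as was SNAP25 (0.956). The cause of these differences was not tested.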
